A study of Mus musculus with 12 samples.

Results

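Cadherins and protocadherins are single-pass or lipid-anchored surface proteins whose extracellular repeats bind calcium. The genes described here are the protein-coding entries whose symbol is Cdh followed by a digit or begins with Pcdh, without Cdh5 and Cdh19, which served as cell type markers. The rule took 57 of the 22711 genes in the expression table: 5 type I (classical) cadherins, 11 type II cadherins, 5 other cadherins, 12 non-clustered protocadherins, and 2, 21 and 1 genes of the alpha, beta and gamma protocadherin clusters. No measured value entered the choice. The clusters lie side by side on chromosome 18, which carries 27 of the 57 genes.

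All 12 RNA libraries came from mice that carried RIP-rtTA and TetO-VEGF-A, in which the rat insulin promoter drives the doxycycline-dependent activator rtTA in beta cells and doxycycline (Dox) then switches on a VEGF-A transgene. Of the 4 groups of 3 libraries, the first held CD11b+ macrophages and the second CD31+ endothelial cells, both sorted from dispersed islets after 1 week of Dox, the third held whole islets after 1 week of Dox, and the fourth held whole islets with no Dox. The labels give neither age nor sex, and no group received Dox without the transgenes, so an effect of Dox itself cannot be told apart from that of VEGF-A. Nor do they say whether replicate libraries stem from different animals, and p-values therefore measure the spread between these samples, which may be technical.

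Classical cadherins bind like molecules on neighbouring cells and are tied to actin through beta-catenin and alpha-catenin. E-cadherin (Cdh1) and N-cadherin (Cdh2) are the classical cadherins known from islet endocrine cells, where they hold beta cells together. Protocadherins lack the catenin-binding tail. The clustered ones are best known from neurons, in which each cell picks its own combination of promoters, and Pcdh12 is known from endothelium.

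Values are the authors' normalized signal, a linear scale with a floor of 1 in every library, at which a gene counts as not detected. The scale is not divided by gene length, so levels are compared between genes only per kilobase (kb) of annotated exon. Differences between groups are given as log2 differences, the first-named group over the second, of signal + 1, with the standard error (SE) and the Benjamini-Hochberg adjusted p of limma's moderated test over all genes of that comparison. A gene was tested where its signal reached 15.5 in at least 3 of the 6 libraries, and a difference was called at an adjusted p under 0.05.

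Summed signal per library lay between 17626506 and 25218786. The markers matched the labels: the summed signal of 10 macrophage markers was 330554 to 348085 in sorted macrophages and 2908 to 4089 in sorted endothelial cells, and that of 10 endothelial markers was 1639 to 2230.0 in macrophages and 246224 to 275768 in endothelial cells. Some libraries stood apart. The second library of each sorted fraction held acinar transcripts, with a sum of 8 acinar markers of 374492 in macrophages and 111371 in endothelial cells. The third library of each fraction was highest in 8 pericyte and smooth muscle markers, with 14778 in macrophages and 64369.7 in endothelial cells, where the other libraries had at most 4245 and 17628. Among whole islets, the deviation of each library from the mean rose with a gene's GC content in Dox islets replicate 1 (Spearman's rho 0.59 across 13514 genes) and No Dox islets replicate 2 (0.66), and fell with it in the other 4 islet libraries.

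Of the 57 genes, 36 passed the low-value filter in all 4 comparisons, 10 in 1 to 3 of them and 11 in none, with a highest value of 75.9 among those 11. Per kb of exon the order differed from group to group. In sorted macrophages the leading genes were Cdh23 with a mean of 154 signal per kb, Cdh1 with 107 and Cdh18 with 63.5. In sorted endothelial cells they were Pcdh17 with 3528, Pcdh1 with 1268 and Pcdh12 with 835. Pcdh17 with 1822 and Pcdh18 with 1067 led in Dox islets, ahead of Cdh1 with 579 and Cdh2 with 497. In No Dox islets the classical cadherins led, with 1366 for Cdh1 and 882 for Cdh2, followed by 516 for Cdh8 and 311 for Pcdh17.

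**Figure D1:**
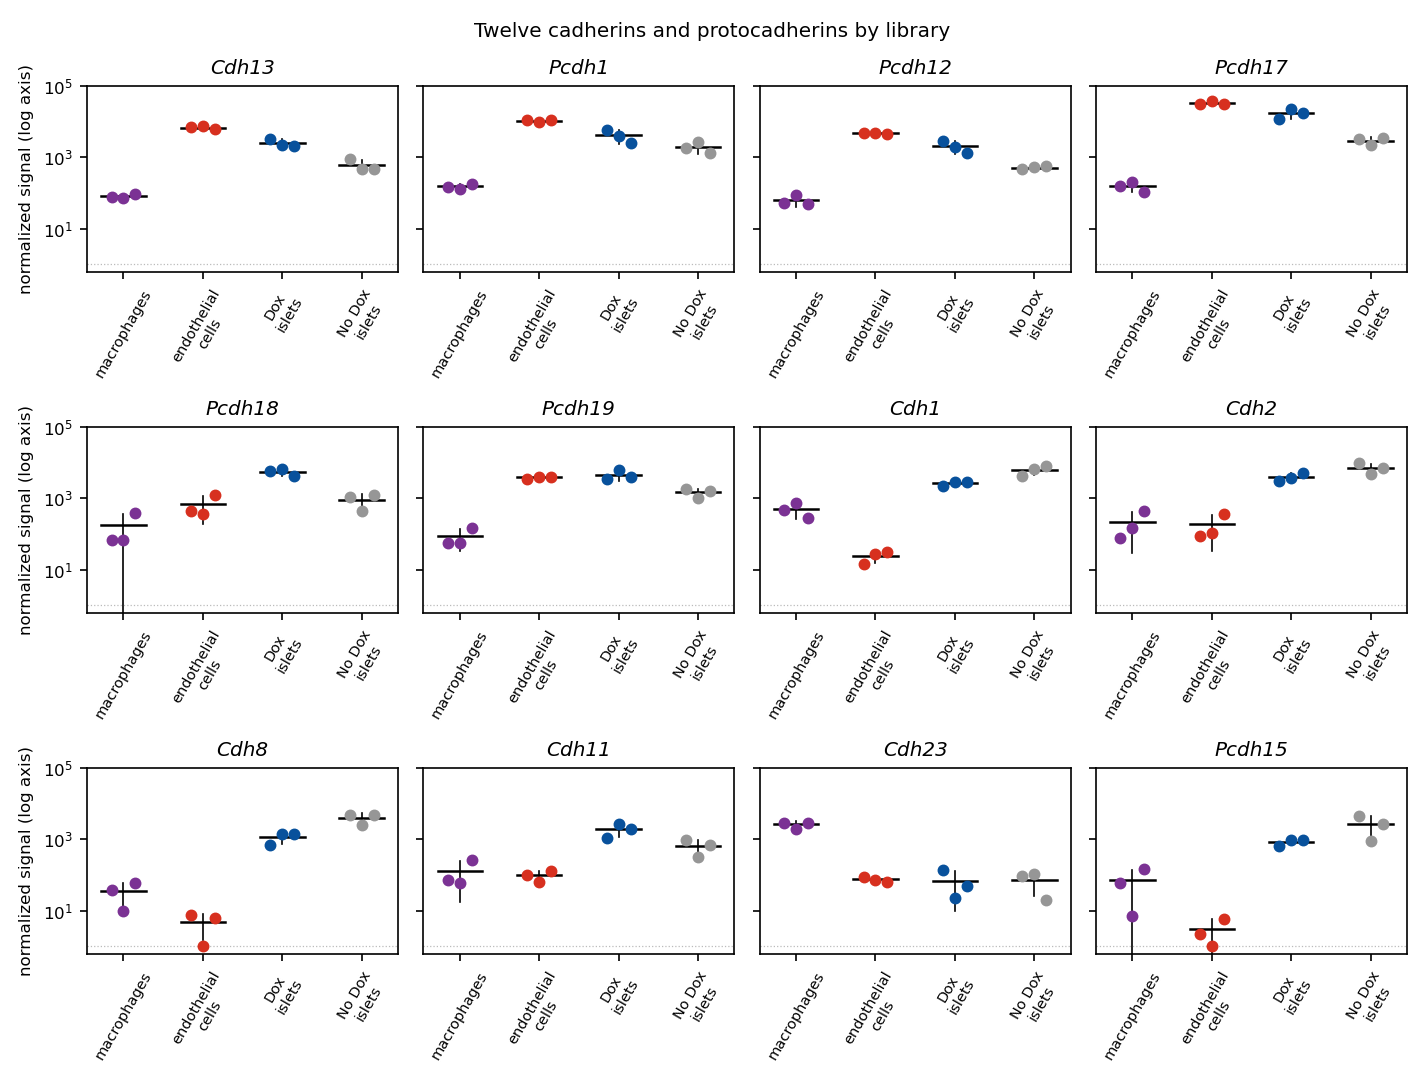
Normalized signal (log axis) of 12 cadherins and protocadherins in each library, with the groups from left to right sorted macrophages, sorted endothelial cells, Dox islets and No Dox islets; each point is 1 library, the line is the mean and the bar the SD (n = 3), cut off at the lower edge of the plot where it passes below. Pcdh17 lay between 109 and 208 in macrophages, against at least 30304 in endothelial cells, and Cdh23 was highest in the 3 macrophage libraries.

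Dox and No Dox islets were compared to see what 1 week of VEGF-A induction does to the adhesion genes of the islet. Pcdh17, Pcdh18, Pcdh19, Pcdh12 and Cdh13 were higher with Dox by log2 differences of 1.65 to 2.72, and Cdh8 was lower by 1.79 on the log2 scale. These were 5 higher and 1 lower calls among 44 genes tested, where 4.33% of all 14443 genes tested were called higher and 1.41% lower (5.74% in all). The median log2 difference was 0.60 over the 44 genes and 0.11 over all genes, and 31 of the 44 lay above 0 (70.5%, against 56.4% of all genes). In whole islets, fewer cells of a type and less RNA per cell cannot be told apart.

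Pcdh17, Pcdh18 and Pcdh19 belong to the delta-2 protocadherins, whose tails bind regulators of actin branching. Pcdh17 (ENSMUSG00000035566 on chromosome 14 from 84843370 to 84936867, mm9) had 11949.7, 22259 and 17759 in Dox islets, against 3201, 2166 and 3499.9 in No Dox islets. The groups did not overlap, and the log2 difference was 2.53 (SE 0.34, limma adjusted p = 0.0119). Pcdh18 (ENSMUSG00000037892 on chromosome 3 from 49547218 to 49561238, mm9) had 5718, 6625 and 4207 in Dox islets, against 1066, 429 and 1216 in No Dox islets, with a log2 difference of 2.72 (SE 0.41, limma adjusted p = 0.0124). Its lowest Dox library stood above its highest No Dox library. Pcdh19 (ENSMUSG00000051323 on chromosome X from 130117402 to 130223532, mm9) had 3546, 6363 and 3918 in Dox islets, against 1792, 1010.1 and 1591 in No Dox islets, a log2 difference of 1.65 (SE 0.35, limma adjusted p = 0.0283). Here too the groups did not overlap, with Dox islets replicate 2 the highest of the 6 for both Pcdh17 and Pcdh19.

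The promoters of these 3 genes and of Cdh8, the single gene called lower, are shown so that the sequence upstream of genes called in this comparison can be read beside their values. Each runs 5′ to 3′ on the gene's strand from 250 bases before to 50 bases after the annotated start (RefSeq, GRCm38.p6, a later build than the mm9 of the files): Pcdh17 at chr14:84443313-84443612 (+), Pcdh18 at chr3:49757267-49757566 (-), Pcdh19 at chrX:133688944-133689243 (-) and Cdh8 at chr8:99416422-99416721 (-). Capitals mark ATTGGCT, a form of the inverted box known to bind the factor NF-Y, which was searched on both strands and chosen after these sequences were seen.
Pcdh17: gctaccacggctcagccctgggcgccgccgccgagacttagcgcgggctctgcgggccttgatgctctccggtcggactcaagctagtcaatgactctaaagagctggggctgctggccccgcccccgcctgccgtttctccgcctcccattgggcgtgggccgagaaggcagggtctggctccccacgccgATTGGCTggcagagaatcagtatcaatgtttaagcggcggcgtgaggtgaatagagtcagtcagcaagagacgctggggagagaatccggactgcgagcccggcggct
Pcdh18: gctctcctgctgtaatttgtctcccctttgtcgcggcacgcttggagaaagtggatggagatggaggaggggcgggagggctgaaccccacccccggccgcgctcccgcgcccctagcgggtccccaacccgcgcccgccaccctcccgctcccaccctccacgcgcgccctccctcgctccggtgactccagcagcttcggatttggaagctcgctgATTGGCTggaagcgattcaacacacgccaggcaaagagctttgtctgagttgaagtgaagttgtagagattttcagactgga
Pcdh19: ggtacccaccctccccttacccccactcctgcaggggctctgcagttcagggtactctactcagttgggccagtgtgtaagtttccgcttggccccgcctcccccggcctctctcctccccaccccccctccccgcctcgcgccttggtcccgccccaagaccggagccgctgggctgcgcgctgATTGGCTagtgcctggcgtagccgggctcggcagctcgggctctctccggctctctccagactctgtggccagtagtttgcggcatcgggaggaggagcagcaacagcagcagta
Cdh8: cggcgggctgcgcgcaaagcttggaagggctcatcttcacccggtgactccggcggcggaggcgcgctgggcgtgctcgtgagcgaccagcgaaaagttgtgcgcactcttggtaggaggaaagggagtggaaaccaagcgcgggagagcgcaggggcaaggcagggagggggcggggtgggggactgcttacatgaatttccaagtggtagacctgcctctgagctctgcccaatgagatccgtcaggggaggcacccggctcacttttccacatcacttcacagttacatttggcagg
The letters occur once in each of the 3 delta-2 promoters and not in that of Cdh8. They were picked from these sequences, so this split was not a test. Shorter forms of the box, ccaat in Cdh8 and another attgg in Pcdh17, stand unmarked. The letters occur in 7 of 25 promoter entries of the 22 cadherin and protocadherin genes matched by symbol, these 3 included. They occur in 7.86% of all 32851 promoters of this length, and the counts test nothing about the family.

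Cdh13 and Pcdh12 are known from vascular endothelium: Cdh13 (T-cadherin) is held in the membrane by a lipid anchor and has no cytoplasmic tail. Cdh13 (ENSMUSG00000031841 on chromosome 8 from 120807633 to 121848821, mm9) had 3302, 2247 and 2139 in Dox islets, against 873, 469 and 474 in No Dox islets, with a log2 difference of 2.12 (SE 0.35, limma adjusted p = 0.0136). Pcdh12 (ENSMUSG00000024440 on chromosome 18 from 38426746 to 38444055, mm9) had 2873, 1893 and 1333 in Dox islets, against 457, 519 and 576 in No Dox islets, with a log2 difference of 1.91 (SE 0.35, limma adjusted p = 0.0177). Both genes were higher in every Dox library than in any No Dox library. Pcdh1, a delta-1 protocadherin, had 5839.6, 3951 and 2518 in Dox islets, against 1832, 2704 and 1287 in No Dox islets. Its groups overlapped, and the difference of 1.06 (SE 0.39, limma adjusted p = 0.152) was not called.

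Marker transcripts of several cell types differed between the same libraries, where 4.33% of all genes tested were called higher and 1.41% lower. The summed endothelial markers were 89369.8 to 114675 in Dox islets, against 35537 to 40403 in No Dox islets, and 6 of 10 were called higher. The sum of 8 pericyte and smooth muscle markers was 208654 to 423754 in Dox islets, against 49926 to 124115 in No Dox islets (4 called higher), and that of 6 fibroblast markers was 48065 to 112894, against 15952 to 40445 (2 called higher). Summed macrophage markers were 15841 to 21752 in Dox islets, against 4933 to 7317 in No Dox islets (5 of 10 called higher), and summed beta cell markers were 161887 to 222779, against 383028 to 675615 (4 of 8 called lower). No marker of these 5 lists was at the floor in all 3 libraries of an islet group, and the part of these differences in the cadherin and protocadherin values was not tested.

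The 6 calls depended on single libraries. Without Dox islets replicate 2 none of them was called, with limma adjusted p of 0.0943 for Pcdh17 and Pcdh18, 0.0956 for Cdh13, 0.105 for Pcdh12, 0.155 for Pcdh19 and 0.112 for Cdh8, and 5 genes were called in the whole table. Without Dox islets replicate 3, Pcdh17 and Pcdh18 were still called, and adjusted p was 0.0574 for Cdh13, 0.0515 for Pcdh12, 0.0857 for Pcdh19 and 0.0806 for Cdh8. Without No Dox islets replicate 1, Pcdh12 and Pcdh19 lost their calls (0.0530 and 0.0513). The differences themselves moved less: over 14 alternative settings Pcdh17 ranged from 2.33 to 2.78 (adjusted p from 0.000303 to 0.0943) and Pcdh18 from 2.21 to 3.00 (adjusted p from 0.000874 to 0.0971). With no filter on low values none of the 6 was called, with the GC trend removed 8 genes were higher and 5 lower, and quantile scaling gave 5 higher and 3 lower.

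The classical cadherins lay lower with Dox, but none was called. Cdh1 had 2239, 2895 and 2809 in Dox islets, against 4321, 6465 and 7965 in No Dox islets. The groups did not overlap, and the log2 difference of -1.20 (SE 0.32, limma adjusted p = 0.0563) missed the threshold. Cdh2 had 3107, 3698 and 5213 in Dox islets, against 9566, 4874 and 6893 in No Dox islets, overlapping groups with a log2 difference of -0.81 (limma adjusted p = 0.217). R-cadherin (Cdh4) had 69.5, 52.4 and 127 in Dox islets, against 369.5, 229 and 226 in No Dox islets, and its log2 difference was -1.77 (limma adjusted p = 0.0721). All 3 had an unadjusted p under 0.05, as had 3000 of all 14443 genes, and their median log2 difference was -1.20. P-cadherin (Cdh3) was too low to be tested, with 12.2, 10.5 and 20.3 in Dox islets, against 4.73, 1 and 1 in No Dox islets.

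The type II cadherins went both ways. Cdh8, known from synapses of central neurons, had 673, 1411 and 1415 in Dox islets, against 4777, 2440.0 and 4765 in No Dox islets, groups that did not overlap (log2 difference -1.79, SE 0.40, limma adjusted p = 0.0338). Cdh8 was called in 7 of 14 alternative settings, with adjusted p from 0.00495 to 0.18, and also lost its call without Dox islets replicate 1 (0.0620), No Dox islets replicate 1 (0.106) or No Dox islets replicate 3 (0.0763). Cdh7, also type II, had 259.8, 307 and 702 in Dox islets, against 1240.5, 567 and 1394 in No Dox islets, overlapping and not called (-1.37, limma adjusted p = 0.133). OB-cadherin (Cdh11), a cadherin of mesenchymal cells, had 1122, 2726 and 1940.5 in Dox islets, against 946, 309 and 689 in No Dox islets. It lay higher with Dox in each library, with a log2 difference of 1.63 (SE 0.47, limma adjusted p = 0.0771) that was not called. Kidney cadherin (Cdh6) had 92.3, 240.1 and 237 in Dox islets, against 77.3, 18.8 and 114 in No Dox islets, and overlapped (1.63, limma adjusted p = 0.239).

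Cdh23 and Pcdh15 form the tip links of hair cells in the inner ear. Cdh23 had 134, 21.9 and 48.5 in Dox islets, against 92.5, 108 and 19.5 in No Dox islets, with no order between the groups (log2 difference -0.15, 95% interval -2.07 to 1.77). Pcdh15 had 659.9, 931 and 977 in Dox islets, against 4598, 883 and 2701 in No Dox islets, and its difference of -1.40 was not called (limma adjusted p = 0.163). Pcdh7, of the delta-1 group, had 205, 433 and 480.0 in Dox islets, against 139.8, 141 and 165 in No Dox islets. The Pcdh7 groups did not overlap, yet its log2 difference of 1.23 was not called (limma adjusted p = 0.147). Pcdh9 had 199, 163 and 155 in Dox islets, against 339, 153 and 260.5 in No Dox islets, overlapping groups with a difference of -0.47. Pcdh20 had 78.3, 205 and 235 in Dox islets, against 83.6, 45.5 and 124 in No Dox islets, and overlapped as well.

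**Figure D2:**
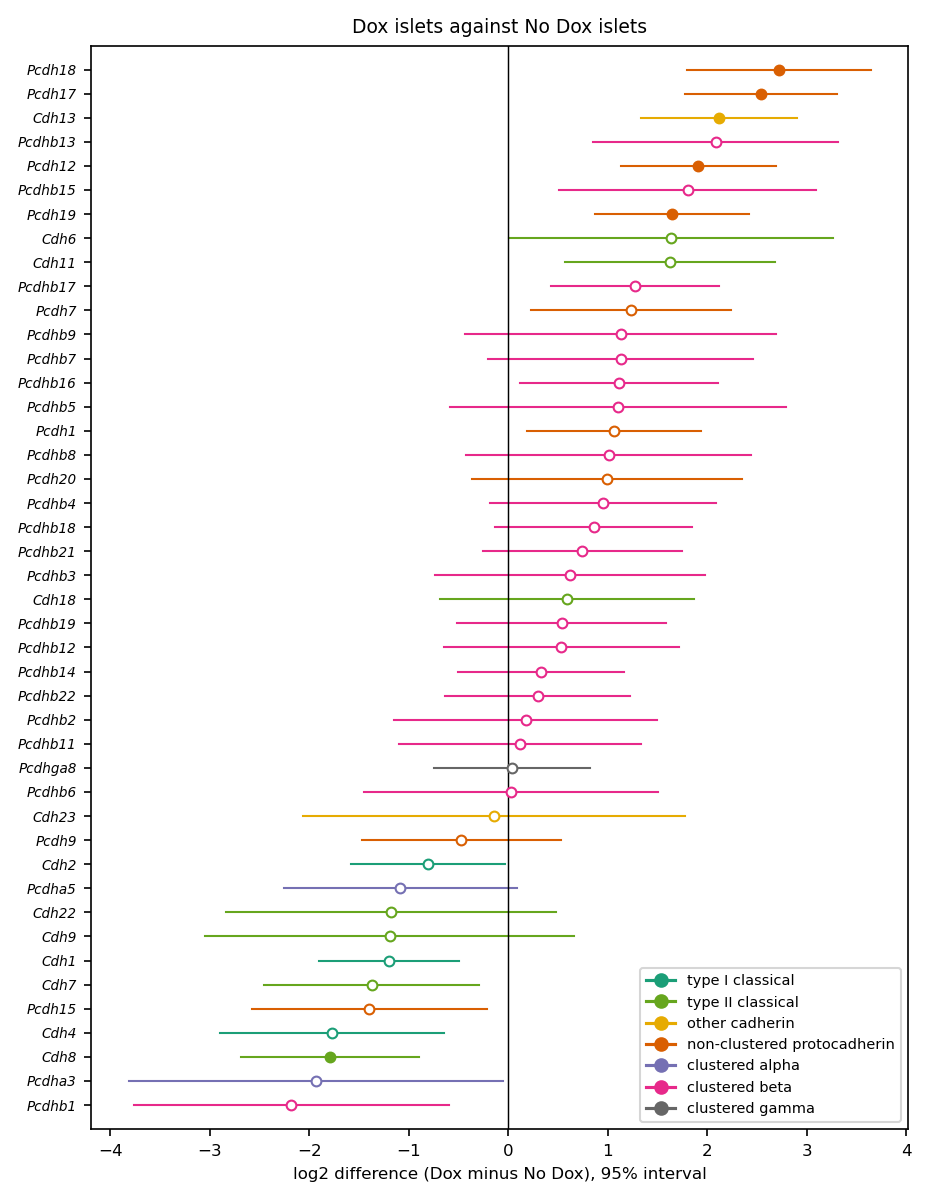
Log2 difference, Dox islets over No Dox islets, of the 44 cadherin and protocadherin genes tested, coloured by family; filled points passed an adjusted p of 0.05, open points did not, and lines are 95% intervals of limma's fit (n = 3 libraries a group). The 5 filled points above 0 are Pcdh18, Pcdh17, Cdh13, Pcdh12 and Pcdh19, and the 1 below 0 is Cdh8.

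The clustered protocadherins could be told apart only in part. The entry named Pcdha5 (37089939 to 37347311 on chromosome 18, mm9) and the entry named Pcdhga8 (37833989 to 38001527) span their whole clusters in GENCODE M1, with 38 and 39 exon entries, so each stands for its cluster and not for 1 variable exon. The 21 beta genes are mostly single-exon genes between 37424652 and 37681073, close copies of each other whose reads the counting could split, and their single values are uncertain. Pcdha5 had 379.6, 1106 and 1583 in Dox islets, against 2656, 1172 and 2042 in No Dox islets, overlapping and not called (log2 difference -1.09, limma adjusted p = 0.277). Pcdhga8 had 8337, 5754 and 5409 in Dox islets, against 8238, 7071 and 4130.0 in No Dox islets, a difference of 0.04 (95% interval -0.74 to 0.82) whose sign turned under 3 other scalings (-0.17 to -0.07).

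The beta genes lay above 0 almost throughout. Their summed signal was 3280.2, 4556 and 5010.2 in Dox islets, against 3106, 1772 and 2517 in No Dox islets, and the groups did not overlap. Of the 20 beta genes tested, 19 had a positive log2 difference (95%, against 56.4% of all genes), with a median of 0.80. None was called by limma, 5 had an unadjusted p under 0.05 (3000 of all 14443 genes did), and 8 had groups that did not overlap (25.4% of all genes did not overlap). Under the other scalings 17 or 18 of the 20 were above 0, and with 1 library left out 17 to 19. Pcdhb13 had the largest rise, with 146, 191 and 203 in Dox islets, against 72.3, 36.0 and 26.9 in No Dox islets (log2 2.08, SE 0.55, limma adjusted p = 0.0580). Pcdhb16, the highest of the beta genes per kb of exon in Dox islets but not in No Dox islets, had 766, 985 and 1431 in Dox islets, against 741, 255 and 567 in No Dox islets. Pcdhb1, at the alpha end of the cluster, was the exception, with 16.6, 6.17 and 14.8 in Dox islets, against 51.3, 78.4 and 43.5 in No Dox islets, a difference of -2.18 that was not called (limma adjusted p = 0.106) although its groups did not overlap.

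**Figure D3:**
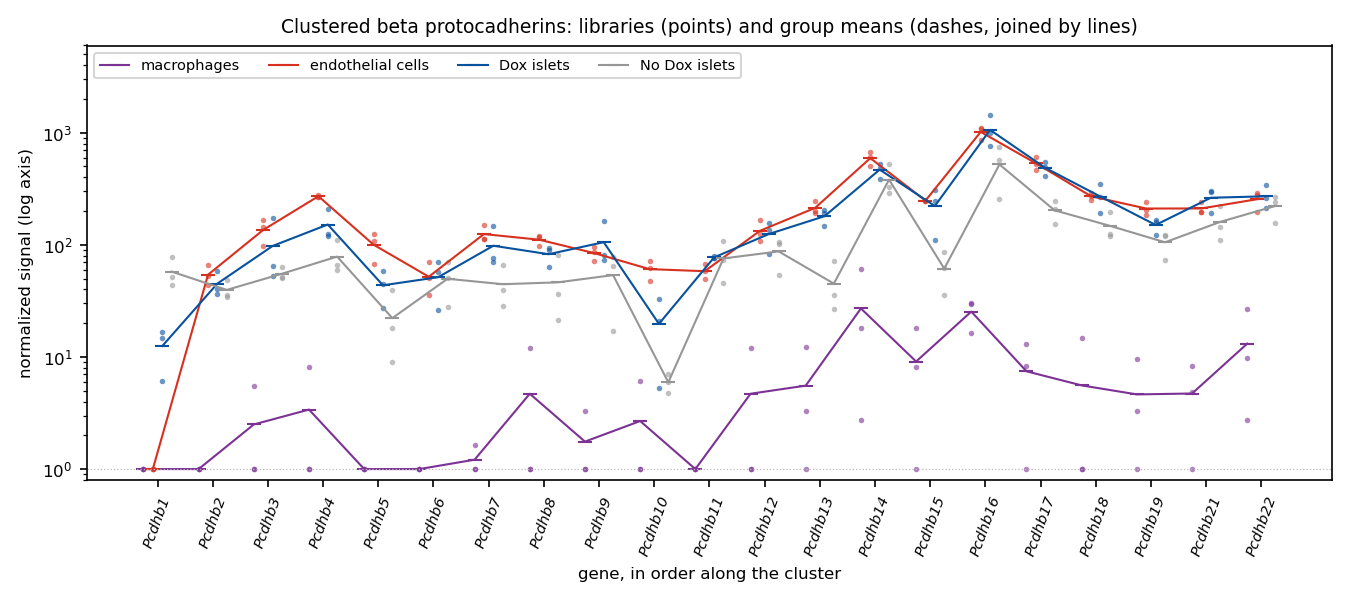
Signal (log axis) of the 21 beta protocadherins in their order along the cluster; lines join the group means and points are single libraries. Macrophages stay near the floor of 1, at most 60.5 for any gene and library, and Pcdhb1 is at 1 in every macrophage and endothelial library.

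The sorted fractions ask which cells of the Dox islet carry these genes. Of the 36 protocadherins, 8 reached the filter in all 3 macrophage libraries, against 30 in all 3 endothelial libraries, and the protocadherins called, with Cdh13 and Cdh4, were higher there than in macrophages. Cdh23, Cdh1 and Cdh18 were higher in macrophages than in endothelial cells. Between macrophages and endothelial cells, 3 of 38 genes tested were higher and 30 lower, where 27.7% of all 13726 genes were called higher and 31.5% lower (59.1% in all). The median log2 difference was -5.09 over the 38 genes and -0.10 over all genes, and it rests in part on genes at the floor in macrophages, whose fitted values depend on the pseudocount. Groups did not overlap for 32 of the 38, against 66.5% of all genes. Of the 38, 19 reached the filter in no macrophage library. A gene that passed the filter through the 3 libraries of 1 fraction alone had to differ, so these counts describe the fractions and test nothing about the family.

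Cdh23 (ENSMUSG00000012819 on chromosome 10 from 59765496 to 60159238, mm9) had 2938, 1939 and 2938 in macrophages, against 86.4, 74.5 and 64.1 in endothelial cells. All 3 macrophage libraries stood far above the others, with a log2 difference of 5.08 (SE 0.23, limma adjusted p = 5.57e-07). Cdh1 (ENSMUSG00000000303 on chromosome 8 from 109127251 to 109194146, mm9) had 476, 721 and 278 in macrophages, against 14.3, 27.1 and 31.2 in endothelial cells, a log2 difference of 4.25 (SE 0.46, limma adjusted p = 8.42e-05). Beside it, the sum of 7 ductal and epithelial markers was 1099.6 to 1408 in macrophages, against 122 to 281 in endothelial cells, with 5 of 5 tested called higher. Most of the macrophage sum came from Spp1, which macrophages are also known to express, with 605, 722 and 551 in macrophages, against 65.5, 127 and 206 in endothelial cells, and from Krt7, with 309, 389 and 499, against 9.63, 6.02 and 4.57. Within that list Epcam had 117, 183 and 127 in macrophages, against 2.05, 11.9 and 34.3 in endothelial cells, and Krt19 was at the floor in all 3 macrophage libraries. Summed beta cell markers were 2926 to 6647 in macrophages, against 511 to 641 in endothelial cells, and the part of either cell type in the Cdh1 value was not tested. The sum of 5 dendritic cell markers was 4884 to 6556 in macrophages, against 6855 to 7572 in endothelial cells, with 4 called higher and 1 lower. Among them Flt3 had 1799, 1946 and 1482 in macrophages, against 3.93, 3.01 and 3.13 in endothelial cells. Cdh18, a type II cadherin, had 274, 325 and 269 in macrophages, against 151, 139.7 and 145 in endothelial cells, groups that did not overlap (log2 0.98, SE 0.23, limma adjusted p = 0.00609).

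On the endothelial side Pcdh17 was the most abundant gene of the set per kb. It had 153, 208 and 109 in macrophages, against 31415, 38918 and 30304 in endothelial cells, a log2 difference of -7.77 (SE 0.23, limma adjusted p = 8.17e-08). Cdh13 had 79.1, 74.2 and 93.7 in macrophages, against 7044, 7335 and 6132 in endothelial cells (-6.36, SE 0.15, limma adjusted p = 4.53e-08). Pcdh12 had 51.0, 88.0 and 48.4 in macrophages, against 4917, 4921 and 4447 in endothelial cells, and a difference of -6.28. For each of these genes the 3 endothelial libraries lay close together, and no macrophage library overlapped them. Pcdh1 had 147, 129 and 181 in macrophages, against 11206, 9958 and 11003 in endothelial cells (-6.14), and Pcdh19 had 57.3, 55.0 and 148, against 3477, 4078 and 4075 (-5.62). Pcdh20 was at the floor in every macrophage library, against 163, 215 and 116 in endothelial cells. Pcdh7 had 6.54, 11.7 and 6.05 in macrophages, against 95.5, 89.0 and 81.8 in endothelial cells, and Cdh4 had 1, 5.50 and 1, against 21.4, 36.6 and 22.9. Both were called lower, by 3.35 and 3.20 on the log2 scale. Pcdh20, Pcdh7 and Cdh4 reached the filter in no macrophage library. They passed it through the endothelial libraries alone, so they had to differ and their calls test nothing.

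Pcdh18, Cdh2 and Cdh11 were low in both fractions and highest in the third library of each. Pcdh18 had 67.9, 68.8 and 393 in macrophages, against 429, 360.4 and 1241 in endothelial cells. These groups overlapped, and the call (-2.22, limma adjusted p = 0.0325) held in 7 of 13 alternative settings. It was lost without macrophage replicate 1 (-1.80) or 2 (-1.81) and without endothelial replicate 1 (-2.44) or 3 (-1.67). Cdh2 had 78.9, 143 and 434 in macrophages, against 87.0, 109 and 359.7 in endothelial cells, and Cdh11 had 72.7, 58.2 and 263, against 97.1, 65.1 and 133. Neither was called, and their log2 differences of 0.17 and 0.14 changed sign when single libraries were left out. In the same libraries the summed pericyte and smooth muscle markers were 3884, 4245 and 14778 in macrophages, against 17628, 17519.8 and 64369.7 in endothelial cells, so they too were highest in the third of each, and their part in these values was not tested. Pcdh9 had 64.0, 78.5 and 80.1 in macrophages, against 96.7, 86.9 and 74.5 in endothelial cells, and was not called (-0.21, 95% interval -0.93 to 0.51). Cdh6 and Cdh3 were not tested between the fractions. Cdh6 had 4.06, 8.25 and 6.05 in macrophages, against 14.9, 11.7 and 54.8 in endothelial cells, and Cdh3 had 1.59, 1 and 3.02, against 3.07, 3.01 and 1.

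The beta cluster was close to the floor in macrophages and detected in endothelial cells. Its summed signal was 143.8, 79.0 and 162.9 in macrophages, against 4572, 4946 and 4706 in endothelial cells. Of the 21 genes, 9, 13 and 14 were at the floor in the 3 macrophage libraries, against 1, the same Pcdhb1, in each endothelial library, and the highest beta value in any macrophage library was 60.5. All 20 genes tested were called lower in macrophages, as were 31.5% of all genes tested. Only Pcdhb14, Pcdhb15, Pcdhb16 and Pcdhb22 reached the filter in any macrophage library. The others passed it through the endothelial libraries, where they are high, so they had to differ. The count therefore tests nothing about the cluster. Pcdhb17 had 13.1, 8.25 and 1 in macrophages, against 608, 527 and 467 in endothelial cells, and Pcdhb4 had 8.18, 1 and 1, against 277, 269 and 267. Pcdhb18 had 14.7, 1 and 1 in macrophages, against 273, 288 and 253 in endothelial cells, again without overlap. The gamma entry Pcdhga8 was lower in macrophages too, with 705, 624 and 1212, against 11163, 11610.2 and 11839.6 in endothelial cells (-3.83, limma adjusted p = 2.48e-06). The alpha entry Pcdha5 was low in both, with 26.6, 1.38 and 90.7 in macrophages, against 43.5, 44.0 and 63.7 in endothelial cells, and was not called.

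**Figure D4:**
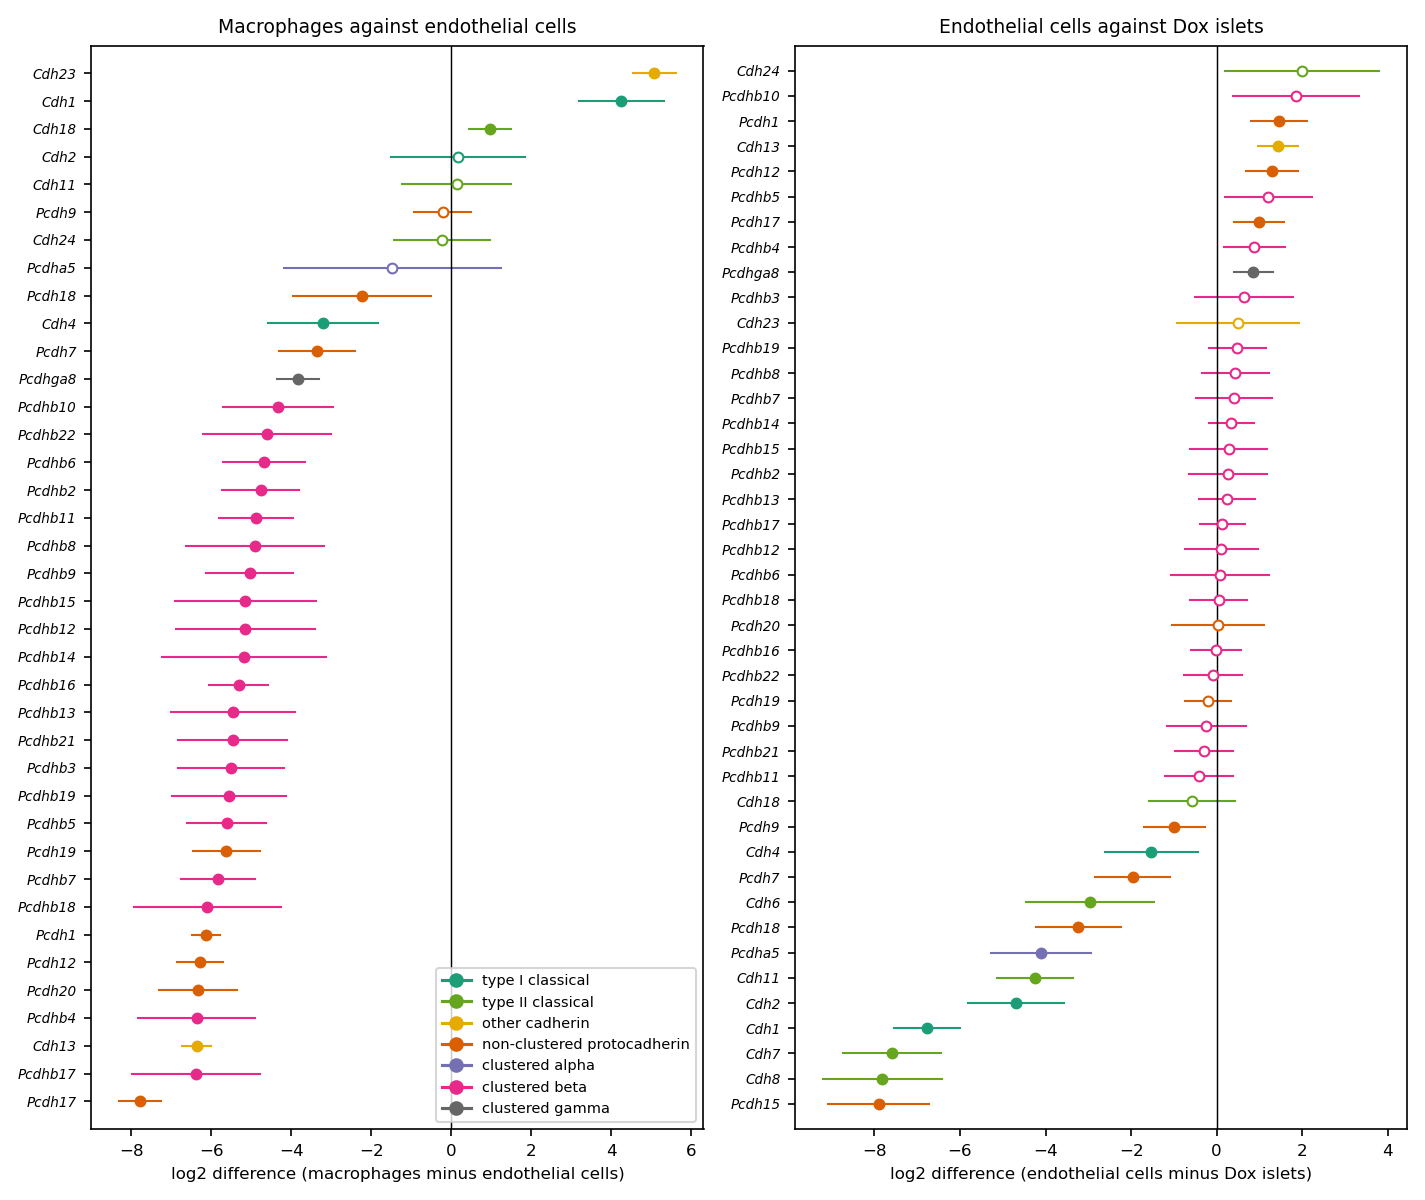
Log2 differences of the genes tested, sorted macrophages over sorted endothelial cells on the left and sorted endothelial cells over Dox islets on the right, coloured by family; filled points passed an adjusted p of 0.05, open points did not, and lines are 95% intervals (n = 3 libraries a group), with fitted values shown also for genes at the floor in 1 group. On the left Cdh23, Cdh1 and Cdh18 are the filled points above 0. All 20 beta protocadherins are filled points below 0 there, most of them tested only through their endothelial values. On the right all 20 beta protocadherins are open.

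Set against whole Dox islets, endothelial cells held more Pcdh1, Cdh13, Pcdh12, Pcdh17 and gamma entry, and less Pcdh15, Pcdh18 and alpha entry. All 3 classical cadherins tested and 4 of 6 type II cadherins tested were called lower. Of 42 genes tested 5 were higher and 12 lower, where 11.5% of all 14218 genes were called higher and 21.6% lower (33.1% in all). Under quantile normalization the split was 11 higher and 9 lower. The median log2 difference was 0.06 over the 42 genes and 0.00 over all genes. Groups did not overlap for 23 of the 42, against 48.3% of all genes. The islet libraries in this comparison and in the next are the same 3 that were set against No Dox islets.

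Pcdh1, Cdh13 and Pcdh12 exceeded Dox islets by log2 differences of 1.47 (SE 0.28, limma adjusted p = 0.00433), 1.44 (SE 0.21, limma adjusted p = 0.000822) and 1.30 (SE 0.27, limma adjusted p = 0.00580). The 3 differences held their call in all 13 alternative settings. Pcdh17 with 0.99 (SE 0.26, limma adjusted p = 0.0179) and Pcdhga8 with 0.85 (SE 0.20, limma adjusted p = 0.0112) held it in 8 and 9 of 13. Pcdh17 lost its call without endothelial replicate 1, 2 or 3 (1.03, 0.88 and 1.06) or Dox islets replicate 3 (1.03), and Pcdhga8 without endothelial replicate 3 (0.84) or Dox islets replicate 3 (0.74). The summed endothelial markers were 246224 to 275768 in endothelial cells, against 89369.8 to 114675 in Dox islets, and 10 of 10 were called higher. Pcdh19, called in the islets, did not differ by a called amount here, with a log2 difference of -0.20 (95% interval -0.75 to 0.34). Nor was any of the 20 beta genes called, with 15 above 0, a median log2 difference of 0.26 and 3 at an unadjusted p under 0.05 (6193 of all 14218 genes). That result moved with the scaling: under quantile normalization all 20 lay above 0, 6 were called higher and the median was 0.86, with the replicate block 2 were called higher, and without Dox islets replicate 1 the median was 0.06 and 2 were called higher. Pcdh18 went the other way from Pcdh17: it was lower in endothelial cells than in Dox islets (log2 difference -3.23, SE 0.43, limma adjusted p = 0.000592).

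The genes with the largest falls in endothelial cells were Pcdh15, Cdh8, Cdh7 and Cdh1. Of the 42 genes tested, 3 reached the filter in no endothelial library: Pcdh15, Cdh8 and Cdh7. They passed it through the Dox islets, where they are high, so they had to differ and their falls test nothing. Pcdh15 had 2.15, 1 and 5.97 in endothelial cells, against 659.9, 931 and 977 in Dox islets (-7.90, limma adjusted p = 1.62e-05). Cdh8 had 7.30, 1 and 6.13 in endothelial cells, against 673, 1411 and 1415 in Dox islets (-7.81), and Cdh7 was at the floor in every endothelial library. The epithelial Cdh1 was lower in endothelial cells with a log2 difference of -6.78 (SE 0.34, limma adjusted p = 6.99e-06). Cdh2 (-4.69), Cdh11 (-4.25) and Pcdha5 (-4.11) were also called lower. In these libraries summed beta cell markers were 511 to 641 in endothelial cells, against 161887 to 222779 in Dox islets. Cdh6, Pcdh7, Cdh4 and Pcdh9 were called lower with differences of -2.97, -1.97, -1.53 and -0.99. Cdh4 and Pcdh9 held the call in 6 and 5 of 13 alternative settings. Without endothelial replicate 1, 2 or 3, neither was called (-1.39, -1.76 and -1.43 for Cdh4, from -1.08 to -0.90 for Pcdh9), nor without Dox islets replicate 3 (-1.17 and -1.07), and Pcdh9 was also lost without Dox islets replicate 2 (-1.03). The other two type II cadherins were not called: Cdh24 had 32.7, 46.4 and 56.2 in endothelial cells, against 39.6, 3.53 and 6.82 in Dox islets (2.00, limma adjusted p = 0.0861), and Cdh18 averaged 145 ± 5.69, against 246 ± 156 (SD, n = 3 each; -0.57, limma adjusted p = 0.353). Cdh23 was not called (0.50, 95% interval -0.92 to 1.91).

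Against Dox islets, macrophages were higher in Cdh23 and lower in nearly everything else of the set. Of 41 genes tested 1 was higher and 38 lower, where 21.3% of all 14479 genes were called higher and 31.4% lower (52.7% in all). The median log2 difference was -4.92 over the 41 genes and -0.20 over all genes. Groups did not overlap for 39 of the 41, against 60.9% of all genes. Of the 41, 20 reached the filter in no macrophage library and passed through the Dox islets, where they are high, so they had to differ and the counts test nothing about the family. Cdh23 was the higher gene, with a difference of 5.58 (SE 0.58, limma adjusted p = 4.81e-05) that was called in all 13 alternative settings. Pcdh17 had the largest fall among genes detected in every library of both groups, -6.78 on the log2 scale (SE 0.31, limma adjusted p = 8.62e-07). Cdh7 had 1, 9.63 and 1 in macrophages and Pcdh20 was at the floor in all 3. Pcdhb21 had 4.91, 8.25 and 1 in macrophages, 198, 241 and 195 in endothelial cells, 193, 299 and 297 in Dox islets and 224, 112 and 145 in No Dox islets. Cdh1, though higher than in endothelial cells, was lower in macrophages than in Dox islets (log2 difference -2.52, SE 0.34, limma adjusted p = 0.000216). Pcdh9 was called lower (-1.20, limma adjusted p = 0.0350) and held that call in 5 of 13 alternative settings. It was lost without macrophage replicate 1 (-1.10) or 2 (-1.25) and without Dox islets replicate 1, 2 or 3 (-1.10, -1.24 and -1.28). The type II cadherins Cdh18 (0.41) and Cdh24 (1.77) were not called.

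The comparison of macrophages with endothelial cells shares no library with that of Dox and No Dox whole islets, so their values can be set side by side. Of the 30 genes lower in macrophages than in endothelial cells, 29 were tested in whole islets. Of these, 28 had a positive log2 difference there, with a median of 1.01, and 5 were called higher. Most of the 29 are beta genes of 1 cluster, close copies with uncertain single values, so they do not count as separate genes. Membership of the 30 also rests on the filter. It was reached in no macrophage library by 19 of the 38 genes tested between the fractions, all among the 30. These genes passed it through the endothelial libraries alone, so they had to differ. The counts therefore describe the set, and a link between the comparisons was not tested. Of the 4251 genes of the whole table that were lower in macrophages and tested in islets, 69.0% lay above 0 there and 8.94% were called higher, with a median of 0.32. Among the 29, Cdh4 was the exception, with a negative value. Of the 3 genes higher in macrophages, Cdh18 lay above 0 in islets, and Cdh1 and Cdh23 below. Of the 5 genes not called between the fractions 4 were tested in islets, where Cdh11 lay above 0 and Cdh2, Pcdh9 and Pcdha5 below, with a median of -0.64. A further 8 genes were tested in islets and were too low to be tested between the fractions: Cdh22, Cdh6, Cdh7, Cdh8, Cdh9, Pcdh15, Pcdha3 and Pcdhb1. Of the 8, 7 lay below 0 with Dox, Cdh6 lay above, and the median was -1.39.

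The catenins tie classical cadherins to actin. Of 19 catenin, adapter and sheddase genes tested in islets, none was higher and 1 was lower with Dox, Ctnnal1, a relative of alpha-catenin (-1.33, limma adjusted p = 0.0314), with a median of 0.15. In that comparison 5.74% of all genes were called. Alpha-catenin (Ctnna1) had 8781, 16513 and 12759 in Dox islets, against 4999, 4261 and 8828 in No Dox islets, and a difference of 1.10 that was not called. Beta-catenin (Ctnnb1, 0.89), p120-catenin (Ctnnd1, 0.90) and plakoglobin (Jup, 1.14) were not called either. Between macrophages and endothelial cells 3 of 17 were higher and 10 lower, with a median of -1.45. Of all genes tested there, 27.7% were called higher and 31.5% lower. Pkp1 reached the filter in no macrophage library and passed it through the endothelial libraries alone, so it had to differ. Delta-catenin (Ctnnd2, 5.24) was among those higher in macrophages, and Jup (-3.24) and Ctnnb1 (-2.53) were among those lower. Macrophages held less Ctnnb1 in the same libraries in which Cdh1 was higher, with 6581, 7345 and 5679 in macrophages, against 39432, 38389 and 35271 in endothelial cells. Against Dox islets, 1 of 19 was higher and 13 lower in macrophages (21.3% and 31.4% of all genes). In endothelial cells 3 were higher and 6 lower (11.5% and 21.6% of all genes), with Jup (1.36) and vinculin (Vcl, 1.23) among the higher. Ctnna2 in both fractions, Pkp1 in macrophages and Pkp2 in endothelial cells passed the filter through the Dox islets alone, so they had to differ.

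Among 28 other members of the cadherin superfamily, 17 were tested in islets and 2 were higher with Dox, VE-cadherin (Cdh5, 1.85, limma adjusted p = 0.0124) and the giant cadherin Fat4 (1.41, limma adjusted p = 0.0259). None was lower, and the median was -0.47. In that comparison 4.33% of all genes were called higher and 1.41% lower. Between macrophages and endothelial cells 3 of 14 were higher, Cdhr1, Fat3 and Celsr3, and 5 lower, among them Cdh5 (-7.53), Fat4 (-7.37) and its ligand Dchs1 (-5.41). These counts lay near the 27.7% of all genes called higher and 31.5% called lower. Cdhr1 and Fat3 reached the filter in no endothelial library, with at most 3.13 and 13.5. They passed it through the macrophage libraries alone, so they had to differ and their calls test nothing. Fat4, Dchs1 and Cdh5 were also higher in endothelial cells than in Dox islets, by 1.48, 1.87 and 1.54 on the log2 scale, beside 11 of 17 that were lower. Of all genes, 11.5% were called higher and 21.6% lower there. Against Dox islets, 1 of 17 was higher and 14 lower in macrophages, where 21.3% of all genes were called higher and 31.4% lower. Cdhr2 and Dsc2 in both fractions, and Cdhr1, Fat3 and Clstn2 in endothelial cells, passed the filter through the Dox islets alone. They had to differ, so the counts against Dox islets test nothing about the list.

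Of 16 regulators linked to cadherins and protocadherins, such as Cdh1 repressors of the Snail and Zeb families and splicing regulators, 12 were tested in islets. Snai2 was higher with Dox (1.57, limma adjusted p = 0.0425) and Esrp1, an epithelial splicing regulator, was lower (-1.38, limma adjusted p = 0.0240). In islets 4.33% of all genes were called higher and 1.41% lower. Between macrophages and endothelial cells 3 of 9 were higher, including Zeb2 (4.40), and 4 lower, including Snai2 (-6.85), Snai1 (-4.85) and Zeb1 (-4.36). Snai2, Snai1 and Zeb1 reached the filter in no macrophage library, with at most 14.7, 6.54 and 13.6. They passed it through the endothelial libraries alone, so they had to differ and their calls test nothing. Of all genes, 27.7% were called higher and 31.5% lower. Zeb2, known as a Cdh1 repressor, was higher in the fraction with more Cdh1, and a link between them was not tested. Against Dox islets, 2 of 11 were higher and 6 lower in macrophages (21.3% and 31.4% of all genes). In endothelial cells 1 was higher and 5 lower (11.5% and 21.6% of all genes). Snai1, Snai2 and Zeb1 beside macrophages, and Twist1 beside endothelial cells, passed the filter through the Dox islets alone. They had to differ, so these counts test nothing about the list.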

How the data were processed

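Per the labels' protocols, RNA was isolated with RNAqueous kits, amplified (NuGEN Ovation), made into NEBNext libraries and sequenced on a HiSeq2500. The deposited signal is the authors' normalized value; its method, counting program, strand use and annotation were not given in the sources used here for any library. The submitters' processing notes name TopHat2 2.0 and build mm9 but not what each was used for. Values above the floor of 1 lie on whole multiples of a step of each library (99.7 to 100% of low values, tolerance 0.1 step), but 41.7 to 63.8% were multiples of 50 steps, so whole reads were not recovered, sequencing depth is unknown and no count model was used.

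Of 22793 entries, 25 symbols stored as dates were restored and 76 repeated symbols were merged, leaving 22711 genes. Exon length came from GENCODE M1, which held 22660 of the gene IDs. Tests used limma 3.58.1 (R 4.3.3) on log2(signal + 1) with a variance trend, the 6 libraries of each comparison, a filter at the 40th percentile of non-zero values (15.5) in at least 3 libraries, and Benjamini-Hochberg adjustment over all genes tested. On simulated data, the fit recovered 28.4% of log2 changes of 2 and 58.2% of changes of 3 between islet groups. Recovery was 67.4% and 84.3% between macrophages and endothelial cells. Against Dox islets it was 48.4% and 73.3% for macrophages, and 62.0% and 83.7% for endothelial cells. A gene not called between islet groups may therefore still differ. A log2 difference on this scale understates the change of low genes. Alternatives were no filter, a pseudocount of 16, quantile and median ratio scaling, all 4 groups in one fit, removal of the GC trend, a replicate block, and leaving out each library.

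Named genes were the called members whose groups do not overlap, up to 8 rises and 8 falls a comparison, plus a set list, and of other lists up to 4 called genes a comparison plus 4 catenins; Cdh18, Cdh24, Pcdh9 and single beta genes with extreme values were also described. The members, lists and tests were chosen with earlier results of these data known. Same-numbered macrophage and endothelial libraries deviated together (correlations 0.23, 0.41 and 0.36), so they may be pairs, although the labels do not say so. The SE, intervals and adjusted p given for them come from a fit on group alone, which ignores such pairing. The replicate block was fitted only as an alternative. In the other comparisons the libraries were not taken as pairs.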

Additional observations from a re-analysis of the deposited data

How the results depend on the processing

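Between Dox and No Dox islets, the 6 calls became 0 with no filter on low values (22711 genes tested, 97 called) and 13 (8 higher, 5 lower) with the GC trend removed; they ranged from 0 to 8 when 1 library was left out, with 2 without Dox islets replicate 3 and 0 without Dox islets replicate 2. Quantile scaling gave 5 higher and 3 lower. With both libraries that stood apart in GC left out, 4 were called (2 higher, 2 lower). The total counts of the other comparisons stayed within 1.5 times under every alternative, although the higher calls between endothelial cells and Dox islets went to 11 under quantile scaling, against 5; with 1 library left out the totals ranged from 32 to 34 between macrophages and endothelial cells, 38 to 39 between macrophages and Dox islets, and 13 to 20 between endothelial cells and Dox islets. The cause was not tested.

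With the replicate number as a block, 6 genes were called between islet groups, 33 between macrophages and endothelial cells (the same 33), 38 between macrophages and Dox islets and 18 between endothelial cells and Dox islets. Pairing changed no call between the sorted fractions; in the other comparisons the samples share only a number (correlations -0.54 to 0.16, 0.03 to 0.21, and 0.00 to 0.29).

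With 1 library left out, the sign turned for 5 genes between islet groups, 3 between macrophages and endothelial cells and 10 between endothelial cells and Dox islets, none of them called; among them were Pcdhga8 (-0.26 to 0.24) and Cdh23 (-0.91 to 0.46) between islet groups, Cdh2 (-0.50 to 0.80) and Cdh11 (-0.53 to 0.55) between macrophages and endothelial cells, and Cdh23 (-0.12 to 1.16) and Pcdh19 (-0.37 to 0.053) between endothelial cells and Dox islets. Quantile scaling moved the median of all genes by 0.29 between endothelial cells and Dox islets, and raised the share of higher calls there to 58.4%, against 34.7%. Values near the floor of 1 limit what can be said of the 11 genes that passed no filter, and intervals cover the spread between 3 libraries only.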
